A study of Mus musculus with 12 samples.

Results

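The neurotrophins brain-derived neurotrophic factor (Bdnf) and neurotrophin-3 (Ntf3), the Trk receptors Ntrk2 and Ntrk3, the p75 receptor Ngfr and the sorting receptor Sort1 were followed in mouse brain RNA. They are 6 of the 53379 genes in the count table, found by matching Ensembl identifiers to the gene symbols. All 6 were among the 19252 genes that passed the filter on low counts. The tissue was cortex of wild-type (WT) C57BL/6J mice, taken 6 months after a series of closed head injuries milder than mild (rlmTBI in the labels) or after sham handling. The 4 groups of 3 libraries were injured mice on the fish oil diet, sham mice on the fish oil diet, injured mice on the purified diet and sham mice on the purified diet. The fish oil diet was a high-fat diet supplemented in cycles and the purified control diet was continuous, so fat content, its cycling and fish oil cannot be told apart. The labels do not tie a library to an animal, so p-values measure the spread between libraries only.

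Neurotrophins are made as precursors, cut to mature proteins and released, BDNF largely in response to neuronal activity. Mature BDNF binds TrkB (the product of Ntrk2) and neurotrophin-3 binds TrkC (the product of Ntrk3), and these receptor tyrosine kinases signal through the MAP kinase, PI3 kinase and phospholipase C gamma pathways. p75 binds all neurotrophins, and with sortilin it binds their uncut precursors. In adult cortex excitatory neurons make most BDNF, neurons and astrocytes make TrkB, and p75 is best known in cholinergic neurons of the basal forebrain.

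Library totals ran from 46362158 to 70754854 counts, and 23207 to 24579 genes had a count. All 10 cortical excitatory neuron markers were detected in every library, at a summed 801 to 1813 CPM (counts scaled by library size, with TMM factors). Each of 4 libraries stood apart from the rest in markers of another region or tissue. Fish oil sham replicate 2 held 1730 CPM of 10 striatal markers, against 134 to 740 CPM elsewhere, and purified injured replicate 3 held 834 CPM of 6 olfactory bulb markers, against 5.07 to 34.2 CPM elsewhere. These 2 libraries also had the lowest cortical marker sums, 801 and 948 CPM. Fish oil injured replicates 3 and 4 held 2744 and 2595 CPM of 12 choroid plexus markers, against 24.4 to 497 CPM elsewhere. Values without some of these libraries are given beside the results for Bdnf, Ntrk3 and Ngfr. In bulk tissue, fewer cells of a type and less RNA per cell cannot be told apart.

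Per kilobase of merged exon, Sort1 and Ntrk2 had the highest levels of the 6 genes, and Ntf3 and Ngfr the lowest. The order of the first 2 depends on the merged length, 7569 bases for Sort1 and 19292 for Ntrk2. In CPM without that scaling the median was 688 for Sort1 and 826 for Ntrk2. Sort1 averaged 89.7 CPM per kilobase over the 12 libraries (range 72.2 to 108), Ntrk2 42.2 (35.1 to 51.3), Ntrk3 8.25 (6.53 to 11.2), Bdnf 6.39 (4.03 to 10.2), Ntf3 0.924 (0.303 to 2.38) and Ngfr 0.660 (0.241 to 2.15). The ranges of Sort1 and Ntrk2 did not meet, nor did those of Ntrk2 and Ntrk3. The range of Ntrk3 overlapped that of Bdnf, and the range of Ntf3 that of Ngfr. Within a library, Ntrk3 was above Bdnf per kilobase in 10 of 12 and Ntf3 above Ngfr in 9 of 12. The receptor genes other than Ngfr varied least, with the highest library 1.46 times the lowest for Ntrk2, 1.5 times for Sort1 and 1.71 times for Ntrk3. The ratio was 2.52 for Bdnf, 7.85 for Ntf3 and 8.93 for Ngfr, and the last pair rested on 27 to 204 and 39 to 390 counts a library.

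**Figure D1:**
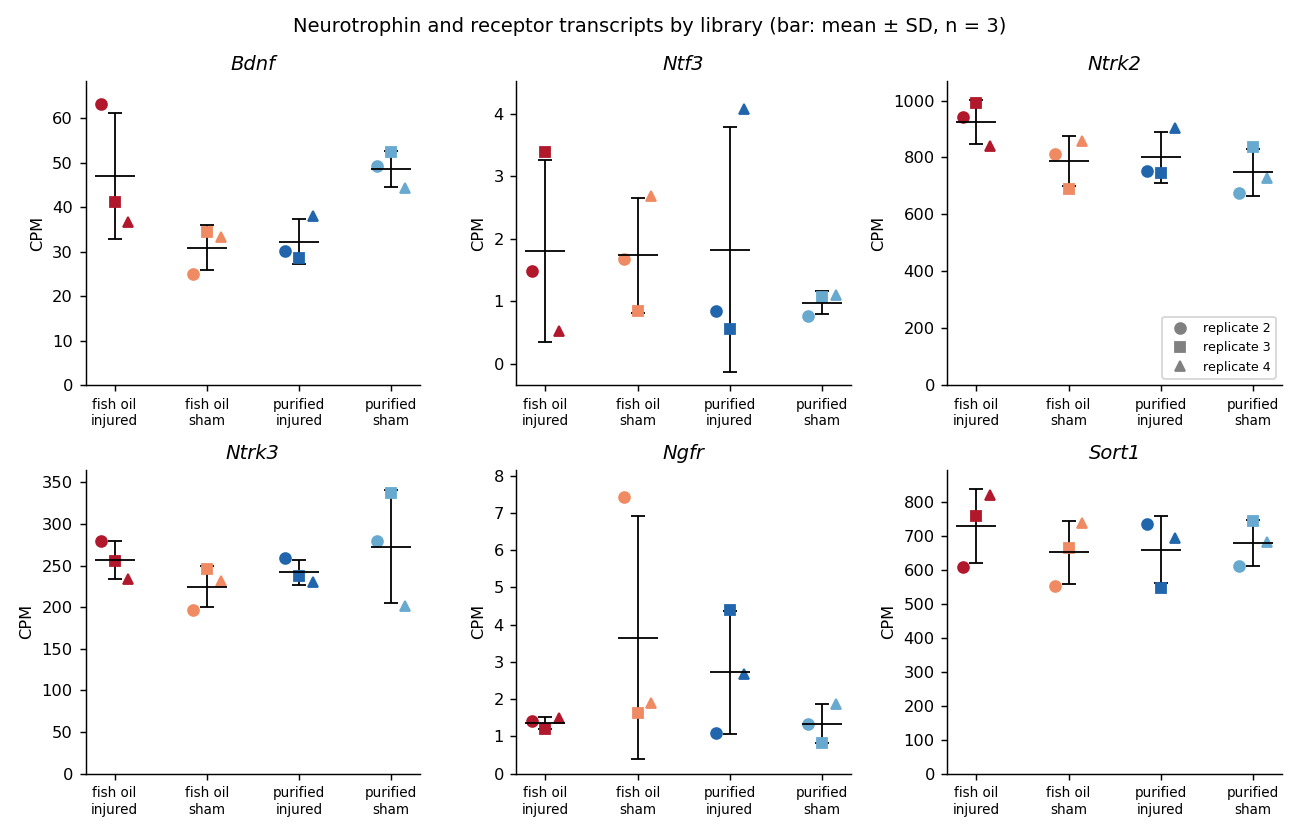
CPM of the 6 genes in each of the 12 libraries, by diet and injury group, with the group mean and SD (n = 3). Bdnf was high in fish oil injured and purified sham libraries, while Ngfr and Ntf3 were set by a few high libraries.

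In edgeR's quasi-likelihood test with Benjamini-Hochberg adjustment over all 19252 genes, 0 of the 6 genes passed an adjusted p of 0.05 in any of the 7 comparisons, and neither did any other gene (0% in each). At an unadjusted p under 0.05, the comparison of injured with sham libraries on the fish oil diet held 2 of the 6 genes (Bdnf and Ngfr; 3.48% of all genes), and that on the purified diet held 1 (Bdnf; 6.5%). The comparison of fish oil with purified diet held 1 in injured libraries (Bdnf; 10.7%) and 2 in sham libraries (Bdnf and Ngfr; 3.69%). The injury effect and the diet effect averaged over the other factor held 0 (3.6% and 8.85%), and the interaction, the injury effect on fish oil minus that on the purified diet, held 2 (Bdnf and Ngfr; 5.76%). DESeq2 called none of the 6 either, and it called 3 to 186 genes of all those tested in the same comparisons. Of the 6 genes, 2 had groups without overlap for injury on fish oil (10.2% of all genes), 1 for injury on the purified diet (11.6%), 0 for diet in injured libraries (11.6%) and 1 for diet in sham libraries (13.8%). These comparisons share groups of libraries, so they are not independent of each other.

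**Figure D2:**
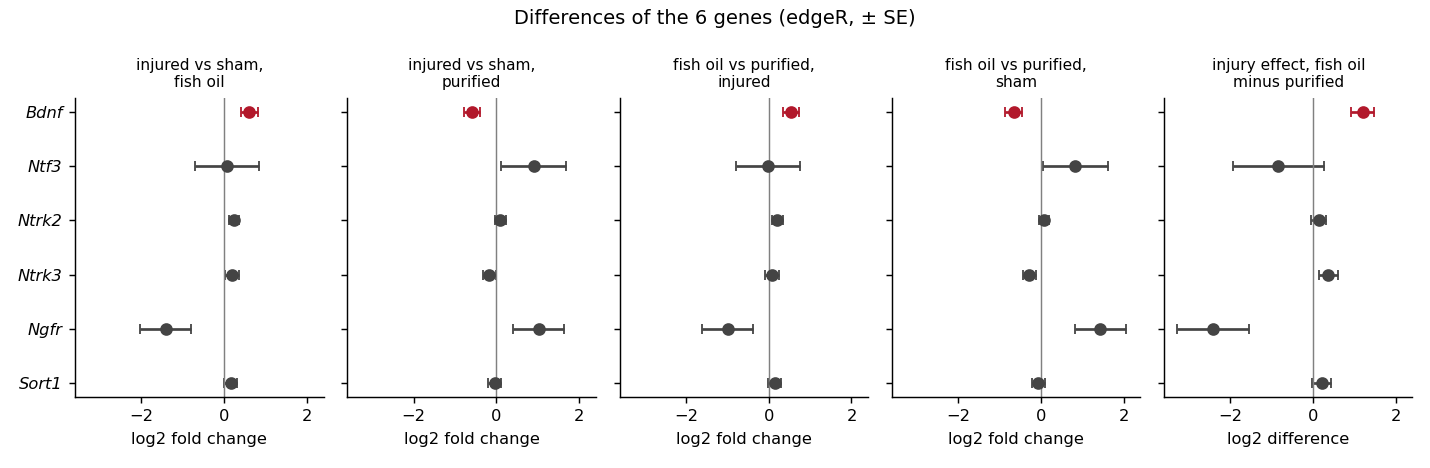
Log2 fold changes of the 6 genes with their standard errors (edgeR) for injury on either diet, for diet in injured and in sham libraries, and for the interaction. Bdnf lay above 0 for injury on fish oil and below 0 for injury on the purified diet, the errors of Ntf3 and Ngfr were the widest, and Ntrk2, Ntrk3 and Sort1 stayed near 0.

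Bdnf (ENSMUSG00000048482.14; chr2:109674700-109727007, plus strand, GRCm38) encodes the neurotrophin that supports synaptic plasticity in cortex. The gene has several alternative first exons that all splice to 1 coding exon, each with its own promoter, and in rodents the promoter called promoter IV is known for a cAMP response element (CRE) bound by the activity-dependent factor CREB. RefSeq (GRCm38.p6) lists 7 starts, and the 120 bases before 3 of them are printed because gene counts add the transcripts of every start. Capitals mark the only match in the 7 windows of 250 bases to the CRE core TGACG, searched on both strands, whose complement reads CGTCA.
Bdnf start 1, chr2:109674580-109674699, plus strand: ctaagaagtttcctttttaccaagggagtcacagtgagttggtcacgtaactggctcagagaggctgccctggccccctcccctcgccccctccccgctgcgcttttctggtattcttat
Bdnf start 3, chr2:109692316-109692435, plus strand: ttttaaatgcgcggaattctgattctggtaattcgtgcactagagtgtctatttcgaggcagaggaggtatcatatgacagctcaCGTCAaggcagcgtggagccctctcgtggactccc
Bdnf start 7, chr2:109722801-109722920, plus strand: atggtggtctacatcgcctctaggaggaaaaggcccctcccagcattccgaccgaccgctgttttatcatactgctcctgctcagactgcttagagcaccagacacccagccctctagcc
The match lay 35 bases before start 3. Windows of the same length held TGACG in 17.8% of 32851 RefSeq starts, the full element TGACGTCA in 1.55% and the E-box CACGTG in 6.02%, and neither of the last 2 was in a Bdnf window. The counts do not tell which start was used. Exons of the antisense gene Gm45346, which had 8 to 36 counts a library, share 896 bases with those of Bdnf, which had 1319 to 3481 counts.

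Bdnf had 63.3, 41.2 and 36.6 CPM in fish oil injured libraries, against 25.1, 34.4 and 33.3 CPM in fish oil sham libraries. Each injured library lay above each sham library on this diet, as did those of 4.97% of all genes. The means were 47.0 ± 14.2 and 30.9 ± 5.10 CPM (SD, n = 3 each), a log2 fold change of 0.60 ± 0.20 (SE; unadjusted p = 0.0114, edgeR adjusted p = 0.999). Fish oil injured replicate 2 was the highest of all 12 libraries, and without it the log2 fold change was 0.33 (unadjusted p = 0.0728).

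On the purified diet the order was the opposite. Bdnf had 30.2, 28.6 and 38.1 CPM in injured libraries, against 49.2, 52.5 and 44.4 CPM in sham libraries. All 3 injured libraries lay below the 3 sham libraries, as did those of 6.68% of all genes. The means were 32.3 ± 5.08 and 48.7 ± 4.05 CPM, and the log2 fold change was -0.59 ± 0.20 (unadjusted p = 0.0127, edgeR adjusted p = 0.763).

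The same values read by diet gave a higher Bdnf mean on fish oil than on the purified diet in injured libraries, where the groups overlapped (log2 fold change 0.54 ± 0.20, unadjusted p = 0.02, adjusted p = 0.408). It was 0.27 (unadjusted p = 0.133) without fish oil injured replicate 2. In sham libraries Bdnf was lower on fish oil than on the purified diet with no overlap, as were 7.45% of all genes, with a log2 fold change of -0.65 ± 0.20 (unadjusted p = 0.00726, adjusted p = 0.934).

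Averaged over diets the injury effect on Bdnf was 0.01 ± 0.14 on the log2 scale, and averaged over injury states the diet effect was -0.06 ± 0.14. The interaction was 1.20 ± 0.28 (unadjusted p = 0.00132, adjusted p = 0.82), the 17th smallest p of the 19252 genes. Injured libraries above every sham library on fish oil and below every sham library on the purified diet were found for 49 genes, or 0.255% of those tested, and the reverse for 34, or 0.177%. Of the 49, fish oil sham libraries were also below every purified sham library for 29 genes, 0.151%. The orders of the 49 and the 29 genes are those seen in Bdnf, so Bdnf was bound to be among them. These shares are therefore no test of Bdnf.

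Marker transcripts of other cells and regions differed between the groups as well. All 10 cortical excitatory markers had a positive log2 fold change for injury on fish oil (median 0.22), 2 of 10 did on the purified diet (median -0.42), and 9 of 10 had a positive interaction (median 0.66). Their sum was 1171 to 1785 CPM in fish oil injured, 801 to 1672 CPM in fish oil sham, 948 to 1813 CPM in purified injured and 1393 to 1585 CPM in purified sham libraries. With the score of these markers as a covariate, the Bdnf interaction was 1.13 ± 0.32 (unadjusted p = 0.00517). Without the 2 libraries high in striatal or olfactory bulb transcripts, fish oil sham replicate 2 and purified injured replicate 3, it was 0.97 ± 0.30 (unadjusted p = 0.00808). The 12 choroid plexus markers summed to 234 to 2744 CPM in fish oil injured libraries, against 37.8 to 68.1 CPM in fish oil sham libraries, and to 24.4 to 53.2 CPM in purified injured libraries, against 32.7 to 497 CPM in purified sham libraries. With the scores of the choroid plexus, olfactory bulb and striatal markers in the model, the Bdnf interaction was 1.5 ± 0.33 (unadjusted p = 0.00129). Without the 2 fish oil injured libraries high in choroid plexus markers, which leaves 1 library in that group, the one with the highest Bdnf, it was 1.60 ± 0.26, injury on fish oil was 1.02 ± 0.21 and diet in injured libraries was 0.96 ± 0.21. That fit assumes that the lone library varies like those of the other groups. Over the 12 libraries Bdnf had an r of 0.47 with the cortical score (0.19 after group means were taken off), 0.34 with the choroid plexus score (-0.35) and 0.56 with the score of 7 dentate gyrus markers (0.66). The dentate gyrus sum was 142 to 166 CPM in fish oil injured, 110 to 179 CPM in fish oil sham, 138 to 309 CPM in purified injured and 151 to 187 CPM in purified sham libraries. Sum and score differed for these markers. Purified injured replicate 3, the library with olfactory bulb transcripts, had the highest sum, 309 CPM, but the lowest score, -0.51. No fit with the dentate gyrus score as a covariate was run. The part of these markers in the Bdnf values beyond these fits was not tested.

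The list of 20 genes known to be induced by BDNF or by the activity that induces it followed the order of Bdnf in most members, though none passed the test. Some of them are also activity-induced on their own, and their pattern in these libraries was known when the list was made. For injury on fish oil 17 of 20 had a log2 fold change above 0 and the median was 0.25, and on the purified diet it was 6 of 20 with a median of -0.35. For fish oil against purified diet it was 14 of 20 in injured libraries (median 0.20) and 5 of 20 in sham libraries (median -0.47). Without fish oil injured replicate 2 the medians were 0.081 for injury on fish oil and 0.097 for diet in injured libraries. The interaction was above 0 in 18 of 20, with a median of 0.63, against -0.02 over all 19252 genes. The exceptions, named after their values were seen, were the enkephalin gene Penk (-2.20 ± 1.57) and the secretogranin gene Scg2 (-0.40 ± 0.73).

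Homer1, whose short form remodels synaptic scaffolds after activity, had 550, 249 and 343 CPM in fish oil injured libraries, against 185, 214 and 223 CPM in fish oil sham libraries. It had 221, 289 and 255 CPM in purified injured libraries, against 317, 397 and 363 CPM in purified sham libraries. Injured libraries were thus above every sham library on fish oil and below every one on the purified diet, and the interaction was 1.37 ± 0.33 (unadjusted p = 0.00146, adjusted p = 0.82). Gene counts do not separate the short form of Homer1 from its other forms. The zinc finger gene Egr3 had an interaction of 1.26 ± 0.36. Its means were 170 ± 58.6 CPM in fish oil injured, 108 ± 26.5 in fish oil sham, 135 ± 30.5 in purified injured and 205 ± 32.3 in purified sham libraries. The fish oil groups overlapped for Egr3, with 238, 132 and 141 CPM in injured and 81.0, 134 and 110 CPM in sham libraries. Egr1 and Arc, a transcription factor and a synaptic regulator of the first wave of activity genes, had purified injured means of 264 ± 46.1 and 140 ± 25.8 CPM, against 523 ± 62.1 and 307 ± 56.0 CPM in purified sham libraries. In fish oil injured and fish oil sham libraries they overlapped. Vgf, which encodes a secreted neuropeptide precursor, differed by a log2 fold change of 0.60 ± 0.23 between the diets in injured libraries, with 25, 28.3 and 28.9 CPM on fish oil and 26.7, 13 and 14.5 CPM on the purified diet.

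**Figure D3:**
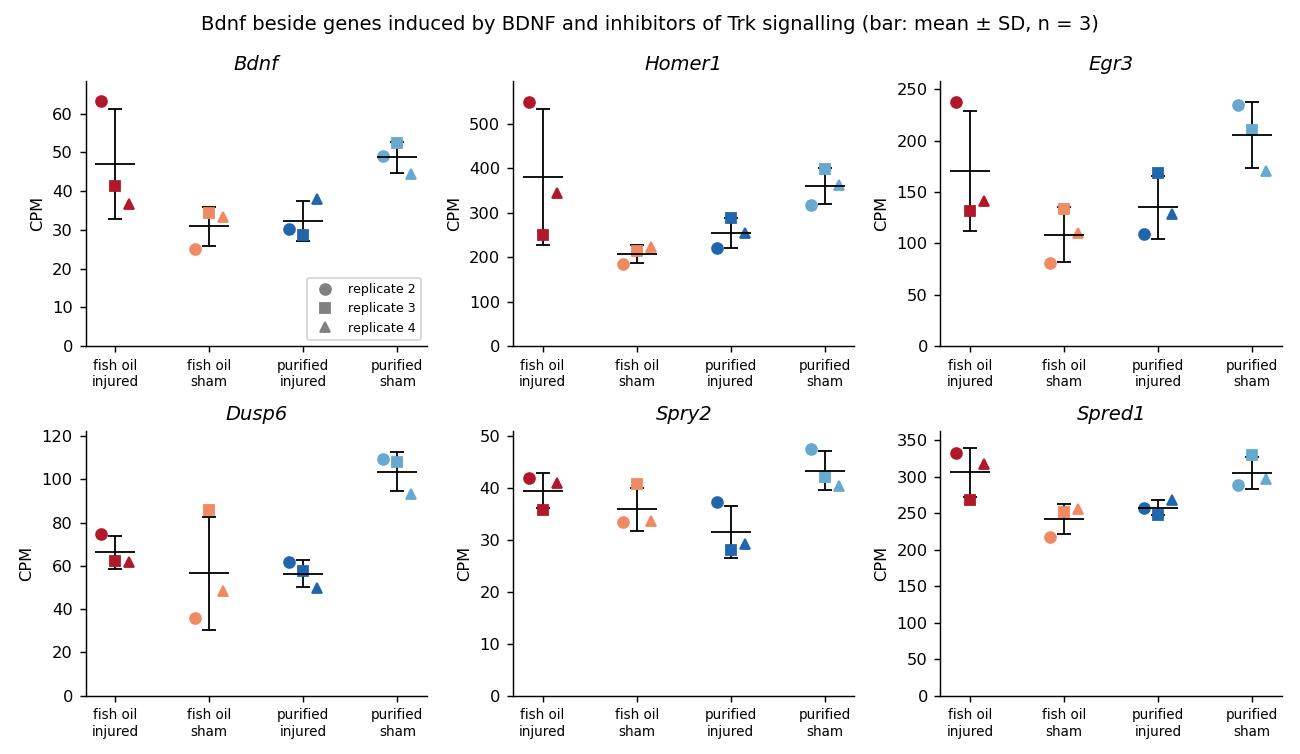
CPM by library of Bdnf, of genes induced by BDNF and of inhibitors of Trk signalling, with the group mean and SD (n = 3). The purified sham mean was above the purified injured mean in each panel. Fish oil injured replicate 2 (circle) was the highest fish oil library for Bdnf, Homer1, Egr3, Spry2 and Spred1.

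Of 16 inhibitors of Trk signalling none passed the test, and the interaction was above 0 in 12 (median 0.23). The largest interaction below 0, named after its value was seen, was that of Lrig1 (-0.91 ± 0.48), which encodes a membrane protein that restrains receptor tyrosine kinases. Spred1, which restrains Ras, had 333, 269 and 318 CPM in fish oil injured libraries, against 218, 252 and 256 CPM in fish oil sham libraries. It had 257, 248 and 269 CPM in purified injured libraries, against 289, 330 and 297 CPM in purified sham libraries. Neither pair of groups overlapped, and the interaction was 0.58 ± 0.15 (unadjusted p = 0.00262, adjusted p = 0.82). Spry2, a Sprouty inhibitor of receptor kinases, had an interaction of 0.60 ± 0.19. Dusp6, the phosphatase of ERK, averaged 56.5 ± 6.13 CPM in purified injured and 103 ± 9.05 CPM in purified sham libraries, a log2 fold change of -0.87 ± 0.25 (unadjusted p = 0.00499, adjusted p = 0.763). Over the 12 libraries the mean log2 level of the 16 genes had a Pearson r of 0.89 with that of Bdnf, and 0.85 after group means were taken off. That of the 20 induced genes had 0.67, and 0.39 after group means were taken off. These values describe 12 libraries that share their scaling and 4 group means. Both lists were chosen with earlier results of these data known.

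Of 23 regulators of Bdnf transcription, none passed the test, 14 had a log2 fold change above 0 for injury on fish oil and 13 a positive interaction (median 0.06). Creb1, which encodes the CRE-binding factor, averaged 97.0 ± 4.10 CPM in fish oil injured and 78.5 ± 5.10 CPM in fish oil sham libraries (log2 fold change 0.31 ± 0.10, unadjusted p = 0.0129), and 91.1 ± 12 CPM in purified injured and 86.5 ± 3.93 CPM in purified sham libraries. Carf, a calcium-response factor of the Bdnf promoter, was lower with injury on fish oil, at 28.1 ± 2.47 CPM against 34.4 ± 1.31 CPM in fish oil sham libraries (log2 fold change -0.29 ± 0.10). Bhlhe40, a repressor, averaged 129 ± 26.9 CPM in fish oil sham and 217 ± 12 CPM in purified sham libraries (log2 fold change -0.75 ± 0.17, unadjusted p = 0.00103, adjusted p = 0.934). The activity factor Npas4 averaged 27.0 ± 15.1 CPM in fish oil sham and 66.5 ± 19.5 CPM in purified sham libraries (log2 fold change -1.30 ± 0.56). Creb1 and Carf thus differed in opposite directions with injury on the fish oil diet.

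The 3 protein-coding genes with the highest correlation with Bdnf over the 12 libraries, among 13069 with a mean of at least 1 CPM, were Klhl42, Zfp451 and Nap1l1 (r = 0.92, 0.91 and 0.91). Their own interactions were smaller than that of Bdnf, at 0.35 ± 0.15, 0.25 ± 0.13 and 0.33 ± 0.16, and none passed the test.

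Ntf3 (ENSMUSG00000049107.13; chr6:126101412-126166910, minus strand) encodes neurotrophin-3, the ligand of TrkC. It had 1.49, 3.39 and 0.520 CPM in fish oil injured libraries, against 1.67, 0.845 and 2.68 CPM in fish oil sham libraries. It had 0.847, 0.550 and 4.08 CPM in purified injured libraries, against 0.760, 1.06 and 1.11 CPM in purified sham libraries. The groups overlapped in all 4 pairwise comparisons. Log2 fold changes were 0.06 ± 0.77 for injury on fish oil and 0.90 ± 0.79 on the purified diet, and -0.02 ± 0.77 and 0.83 ± 0.79 for fish oil against purified diet in injured and in sham libraries, with unadjusted p of 0.275 to 0.98. The interaction was -0.85 ± 1.10.

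Ntf3 was high where meningeal fibroblast markers were high. The 10 markers, all detected in every library, summed to 69.9, 166 and 31.2 CPM in fish oil injured, 77.9, 59.5 and 154 CPM in fish oil sham, 44.8, 61.0 and 180 CPM in purified injured and 42.5, 44.0 and 64.9 CPM in purified sham libraries. In each of the 4 groups the library with the highest Ntf3 was the one with the highest marker sum. Pearson r between log2 Ntf3 and the marker score was 0.94 over the 12 libraries (Spearman rho 0.90), and 0.95 after group means were taken off. Without purified injured replicate 4, the log2 fold change for injury on the purified diet was -0.47, and with the marker score as a covariate it was -0.22 ± 0.34. The genes most like Ntf3 were Acvr2a (r = 0.97), Hrk and Tmco5 (0.96 each).

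**Figure D4:**
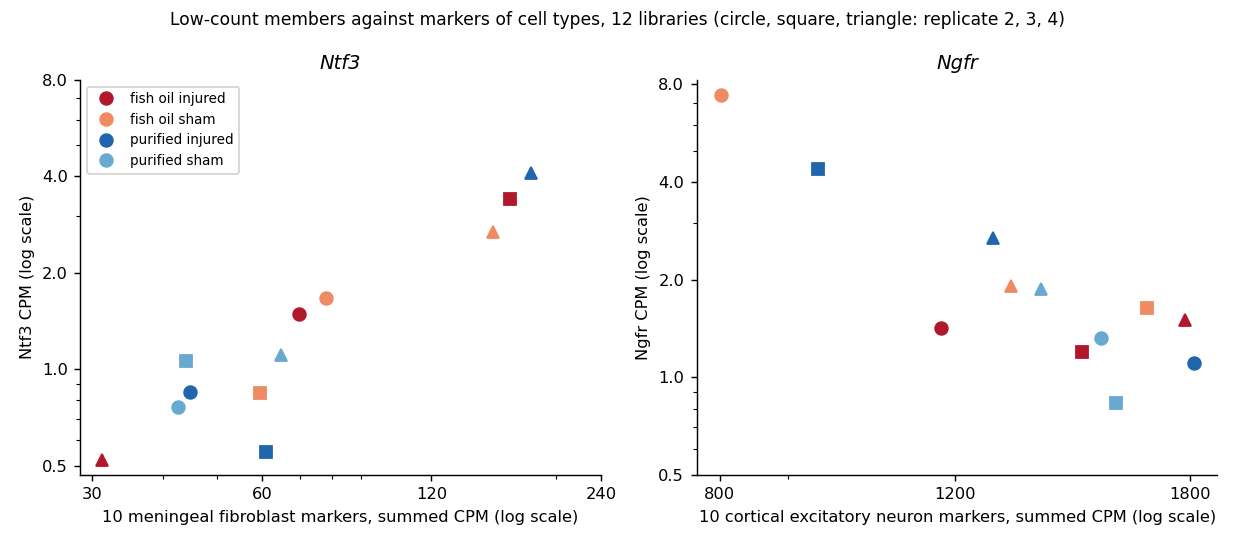
Low-count genes against summed CPM of cell type markers in the 12 libraries, on log axes, with colour for the group and symbol for the replicate. Ntf3 followed the meningeal fibroblast markers (r = 0.94 with their score), and Ngfr was highest in the 2 libraries with the lowest cortical excitatory markers.

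Of the neurotrophins outside the 6 genes, neurotrophin-4/5 (Ntf5) had at most 6 counts in a library and was not tested.

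Ntrk2 (ENSMUSG00000055254.15; chr13:58806569-59133970, plus strand) encodes TrkB, the BDNF receptor, as a full-length kinase and as truncated forms that prevail in astrocytes, and gene counts do not separate these forms. It had 943, 990 and 842 CPM in fish oil injured libraries, against 814, 688 and 857 CPM in fish oil sham libraries. It had 752, 747 and 903 CPM in purified injured libraries, against 676, 838 and 729 CPM in purified sham libraries. The groups overlapped in every pairwise comparison, and the 2 highest libraries were fish oil injured. The highest, fish oil injured replicate 3, held 2744 CPM of choroid plexus and 166 CPM of meningeal fibroblast markers. Over the 12 libraries r of Ntrk2 was 0.61 with the choroid plexus score and 0.60 with the meningeal fibroblast score. After group means were taken off these were 0.27 and 0.76. With the cortical excitatory score r was -0.19. Log2 fold changes were 0.23 ± 0.13 for injury on fish oil (unadjusted p = 0.0961, adjusted p = 0.999), 0.10 ± 0.13 on the purified diet, 0.21 ± 0.13 for diet in injured and 0.07 ± 0.13 in sham libraries. The injury effect averaged over diets was 0.17 ± 0.09 (unadjusted p = 0.0951) and the interaction 0.14 ± 0.18.

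Bdnf and Ntrk2 thus differed in how they varied between groups. In each library Ntrk2 had 4.43 to 10.5 times the CPM per kilobase of Bdnf. The ratio of their CPM per kilobase averaged 6.65 ± 1.61 in fish oil injured and 8.40 ± 2.01 in fish oil sham libraries. It averaged 8.03 ± 0.386 in purified injured and 4.95 ± 0.459 in purified sham libraries. The purified diet groups did not overlap, at 7.64 to 8.41 in injured and 4.43 to 5.29 in sham libraries, while the fish oil groups did, at 4.80 to 7.74 in injured and 6.44 to 10.5 in sham libraries. On the purified diet Bdnf alone did not overlap either, as for 11.6% of all genes. Ntrk2 differed there by 0.10 ± 0.13 on the log2 scale, so the ratio is not a result apart from that of Bdnf. Pearson r between Bdnf and Ntrk2 was 0.24 over the 12 libraries. Cbx5, Mettl4 and Nf1 (r = 0.93, 0.93 and 0.92) were the genes most like Ntrk2, and Nf1 encodes neurofibromin, which restrains Ras.

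Ntrk3 (ENSMUSG00000059146.12; chr7:78175959-78738012, minus strand) encodes TrkC, the receptor of neurotrophin-3. It had 280, 256 and 234 CPM in fish oil injured libraries, against 197, 245 and 231 CPM in fish oil sham libraries. It had 259, 238 and 230 CPM in purified injured libraries, against 280, 337 and 202 CPM in purified sham libraries. The purified sham group held both the highest library and the second lowest, and the groups overlapped in every pairwise comparison. Log2 fold changes were 0.19, -0.17, 0.08 and -0.28 for injury on fish oil, injury on the purified diet, diet in injured and diet in sham libraries (SE 0.16 each), and the interaction was 0.36 ± 0.23. Ntrk3 was lowest in the 2 libraries with the highest striatal marker sums, fish oil sham replicate 2 (1730 CPM) and purified sham replicate 4 (740 CPM). Its r with the striatal score was -0.78 over the 12 libraries. Purified sham replicate 4 was kept in the fits without the 2 libraries high in striatal or olfactory bulb transcripts. Without fish oil sham replicate 2 the log2 fold change for injury on fish oil was 0.09 and that for diet in sham libraries -0.19. Without purified sham replicate 4 the log2 fold change for diet in sham libraries was -0.46 (unadjusted p = 0.0063), and without purified sham replicate 3 it was -0.09. Drosha, Gatad2b and Ryr2 (r = 0.90, 0.89 and 0.87) were most like it.

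Among 39 adaptors and kinases downstream of Trk receptors, none passed the test, and 21, 23, 25 and 24 had a log2 fold change above 0 in the 4 pairwise comparisons in the same order. Their medians were 0.01, 0.01, 0.03 and 0.03. Map2k1, which encodes the ERK kinase MEK1, averaged 285 ± 53.1 CPM in purified injured and 199 ± 4.91 CPM in purified sham libraries (log2 fold change 0.52 ± 0.16, unadjusted p = 0.00602, adjusted p = 0.763). Its interaction was -0.60 ± 0.22, opposite in sign to that of Bdnf. The Src-family kinase gene Fyn averaged 119 ± 34.1 CPM in purified injured and 87.7 ± 3.27 CPM in purified sham libraries (log2 fold change 0.44 ± 0.17). Purified injured replicate 3 was the highest of all 12 libraries for both, at 346 CPM of Map2k1 and 157 CPM of Fyn, against 253 and 255 CPM and 89.8 and 111 CPM in the other purified injured libraries. The adaptor gene Crk averaged 217 ± 1.52 CPM in fish oil injured and 190 ± 7.21 CPM in fish oil sham libraries (log2 fold change 0.19 ± 0.09).

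Ngfr (ENSMUSG00000000120.6; chr11:95568818-95587735, minus strand) encodes the p75 neurotrophin receptor. It had 1.42, 1.19 and 1.5 CPM in fish oil injured libraries, against 7.42, 1.63 and 1.91 CPM in fish oil sham libraries. It had 1.10, 4.40 and 2.68 CPM in purified injured libraries, against 1.32, 0.830 and 1.87 CPM in purified sham libraries. The highest values were in the libraries highest in striatal or olfactory bulb transcripts, 7.42 CPM in fish oil sham replicate 2 and 4.40 CPM in purified injured replicate 3. All fish oil injured libraries were below all fish oil sham libraries, as for 5.23% of genes, and the other pairs of groups overlapped. Log2 fold changes were -1.41 ± 0.62 for injury on fish oil (unadjusted p = 0.0421, adjusted p = 0.999), 1.02 ± 0.61 on the purified diet, -0.99 ± 0.61 for diet in injured and 1.44 ± 0.62 in sham libraries (unadjusted p = 0.0389, adjusted p = 0.934), and the interaction was -2.43 ± 0.87 (unadjusted p = 0.0169, adjusted p = 0.82).

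Without fish oil sham replicate 2, the Ngfr log2 fold change for injury on fish oil was -0.38 (unadjusted p = 0.462) and for diet in sham libraries 0.40. Without purified injured replicate 3, that for injury on the purified diet was 0.51 and that for diet in injured libraries -0.47 (unadjusted p = 0.476). The interaction was -1.40 without fish oil sham replicate 2 and -0.88 ± 0.60 without both libraries. With the cortical excitatory score as a covariate they were -0.54 ± 0.35 for injury on fish oil, 0.11 ± 0.35 on the purified diet and -0.65 ± 0.52 for the interaction. Ngfr had an r of -0.90 with that score over the 12 libraries (Spearman rho -0.83). Fish oil sham replicate 2 also held 70.6 CPM of 6 basal forebrain cholinergic markers, against 1.04 to 18.4 CPM in the other libraries. There the acetylcholine-synthesizing enzyme gene Chat was at 15.4 CPM. In purified injured replicate 3 the cholinergic sum was 1.04 CPM, the lowest, and the olfactory bulb gene Cdhr1 was at 522 CPM. Ypel5 (r = 0.94), Pttg1ip and P2ry1 (0.92 each) were most like Ngfr.

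Of 13 partners of p75, such as Nogo receptors and their ligands, none passed the test and 8, 5, 10 and 5 had a log2 fold change above 0 in the 4 pairwise comparisons. Omg, a myelin and neuronal ligand of the Nogo receptor, averaged 116 ± 34.7 CPM in purified injured and 160 ± 0.860 CPM in purified sham libraries (log2 fold change -0.46 ± 0.19, unadjusted p = 0.0345). Purified injured replicate 3 was the lowest, at 76.0 CPM, against 137 and 135 CPM in the other purified injured libraries. Bex3, which encodes a death-domain interactor of p75, averaged 80.3 ± 13.4 CPM in fish oil sham and 66.1 ± 6.72 CPM in purified sham libraries (log2 fold change 0.28 ± 0.13). Fish oil sham replicate 2, with striatal and cholinergic transcripts, was at 95.8 CPM, and the other fish oil sham libraries were at 71.8 and 73.2 CPM, against 58.9 to 72.1 CPM in purified sham libraries.

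Sort1 (ENSMUSG00000068747.14; chr3:108284082-108361511, plus strand) encodes sortilin, which sorts BDNF to the regulated secretory pathway and binds neurotrophin precursors with p75. It had 609, 759 and 818 CPM in fish oil injured libraries, against 551, 664 and 737 CPM in fish oil sham libraries. It had 734, 546 and 694 CPM in purified injured libraries, against 610, 744 and 682 CPM in purified sham libraries. The groups overlapped in every pairwise comparison, and log2 fold changes were 0.16, -0.04, 0.15 and -0.06 (SE 0.16 each) with an interaction of 0.21 ± 0.22. The 2 lowest libraries were again fish oil sham replicate 2 and that with olfactory bulb transcripts, and r with the cortical excitatory score was 0.72. The difference between diets was 0.05 in injured and 0.09 in sham libraries with that score as a covariate, against 0.15 and -0.06 without it. Ttc7b and Slc39a10 (r = 0.93 each) were among the genes most like Sort1.

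The other 4 sortilin-family receptors did not pass the test in any comparison. Sorl1, known for sorting the amyloid precursor protein, had the largest interaction among them, 0.61 ± 0.34, with 501 ± 79.2 CPM in fish oil injured, 399 ± 97.9 in fish oil sham, 426 ± 123 in purified injured and 519 ± 118 in purified sham libraries. Of 11 tested genes that process or package neurotrophin precursors none passed, and 5, 6, 5 and 5 were above 0 in the 4 pairwise comparisons. Cadps2, which promotes release of BDNF from dense-core vesicles, averaged 162 ± 61.7 CPM in fish oil injured and 83.5 ± 35.5 CPM in purified injured libraries (log2 fold change 0.95 ± 0.33, unadjusted p = 0.0142), and its interaction was 1.21 ± 0.46. It was at 42.5 CPM in purified injured replicate 3 and at 105 and 103 CPM in the others of that group. Mmp9, a protease that can cut the BDNF precursor outside the cell, averaged 1.79 ± 0.525 CPM in fish oil sham and 1.02 ± 0.177 CPM in purified sham libraries (log2 fold change 0.81 ± 0.28). The proprotein convertase gene Pcsk7 averaged 20.4 ± 1.83 CPM in fish oil injured and 27.5 ± 5.42 CPM in purified injured libraries (log2 fold change -0.43 ± 0.15).

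Of 9 astrocyte genes, listed because astrocytes express truncated TrkB, none passed the test, and 4, 4, 7 and 7 had a log2 fold change above 0 in the 4 pairwise comparisons. The glutamate transporter gene Slc1a2 averaged 4899 ± 253 CPM in fish oil injured and 3748 ± 846 CPM in purified injured libraries (log2 fold change 0.39 ± 0.17, unadjusted p = 0.0401), and purified injured replicate 3 was again the lowest, at 2865 CPM. The medians of the 2 comparisons of diets, 0.16 and 0.14, stood beside the Ntrk2 values of 0.21 and 0.07. Those of the 2 comparisons of injury, -0.0047 on fish oil and -0.08 on the purified diet, stood beside 0.23 and 0.10.

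**Figure D5:**
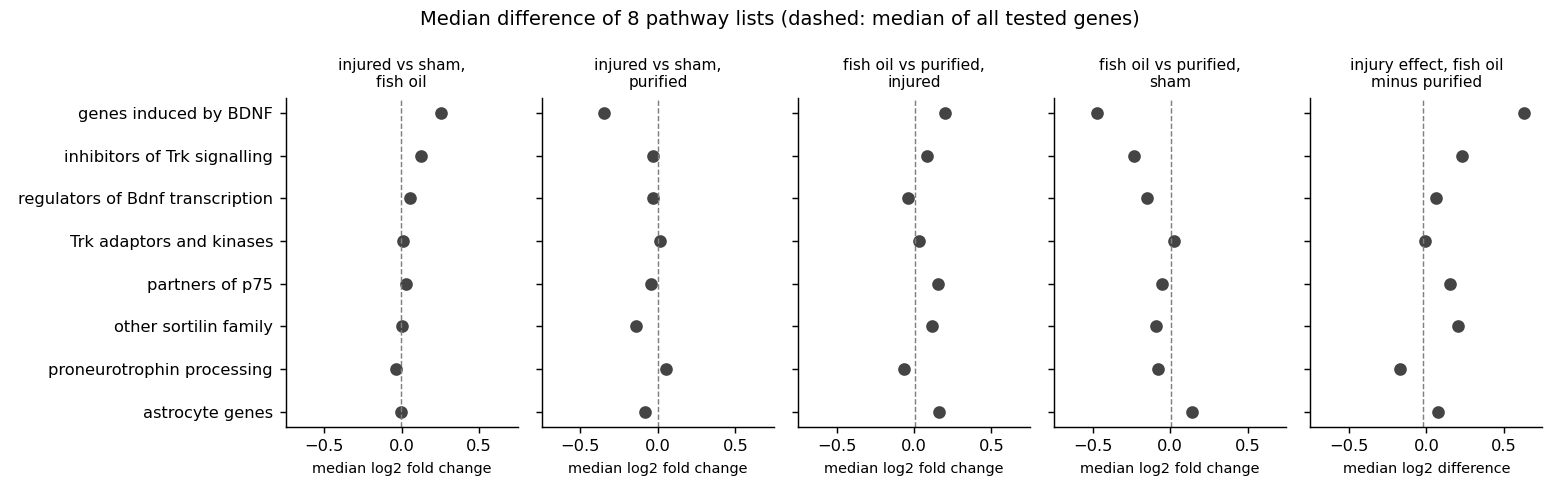
Median log2 fold change of 8 lists of pathway genes in the 4 pairwise comparisons and the interaction, with the median of all tested genes as a dashed line. Of the lists drawn, the genes induced by BDNF lay farthest from 0 in the interaction (0.63), and the Trk adaptors and kinases lay close to 0 in each.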

How the data were processed

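RNA sequencing of 12 libraries was analysed at the gene level. Per the labels' protocols, total RNA was used for stranded libraries and paired-end sequencing. The submitters' processing notes name the mm10 build, featureCounts 1.4.3-p1 and STAR 2.5.2a. Which annotation, strand setting or rule for multi-mapped reads was used is not given in the sources used here, and genes that overlap could share counts. The deposited table holds raw counts per gene. There were 20514 values of 2 and 11222 of 1, so both mates of a pair may have been counted. Counting error is small beside the spread between libraries for Bdnf, Ntrk2, Ntrk3 and Sort1. Relative to the level it is largest for Ntf3 and Ngfr, which had the fewest counts. Their SD over the 12 libraries was 74.2% and 82.5% of the mean.

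Identifiers were matched to GENCODE M21 symbols on GRCm38 (53274 without version, 50604 with version). Genes were kept with filterByExpr (minimum count 10) over the 4 groups, leaving 19252 of 53379. edgeR 4.0.16 (R 4.3.3; TMM factors, robust glmQLFit and glmQLFTest) was fitted with 4 group means to the 12 libraries, which left 8 residual degrees of freedom, and Benjamini-Hochberg adjustment ran over all genes at 0.05. The biological coefficient of variation was 0.289. Standard errors were derived from the F statistic. CPM used TMM-scaled library sizes, and log2 CPM a prior count of 2. A level per kilobase divides CPM by the merged exon length. A list score is the mean log2 CPM of its genes. Replicates of a group differed beyond sampling noise in every pair. The procedure was tested on simulated data.

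The 6 genes, 9 pathway lists and 11 marker lists were chosen with earlier results of these data known. Named genes were the 6, the other neurotrophin genes, and in each pathway list the 2 members with the smallest p in each pairwise comparison and the interaction among members averaging 1 CPM or more. The 3 protein-coding genes most correlated with each of the 6 were named too. A few genes that this rule names are not reported here. Alternatives were other normalizations and filters, DESeq2 1.42.0, limma-voom (limma 3.58.1) with and without a correlation of libraries sharing the first library number, fits to the compared groups only, a replicate block, other-tissue covariates, a threshold of 0.10 and leaving out libraries. Cortical excitatory and meningeal fibroblast covariates, halved counts and leaving out the libraries high in choroid plexus markers were chosen after seeing the data.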

Additional observations from a re-analysis of the deposited data

Results flagged for a closer look

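The injury effect on Bdnf had opposite signs on the 2 diets, since each injured library lay above each sham library on fish oil and below each on the purified diet. The log2 effects were 0.60 ± 0.20 on fish oil and -0.59 ± 0.20 on the purified diet, and their difference was 1.20 ± 0.28 (edgeR interaction, unadjusted p = 0.00132, adjusted p = 0.82), which failed the correction. Homer1 had the same order of libraries, with effects of 0.87 ± 0.23 and -0.50 ± 0.23 and a difference of 1.37 ± 0.33 (adjusted p = 0.82). Spred1 did too, with 0.34 ± 0.11 and -0.24 ± 0.11 and a difference of 0.585 ± 0.15 (adjusted p = 0.82). Homer1 and Spred1 came from lists made with these data known.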

How the results depend on the processing

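None of the 6 genes passed the threshold under any alternative run. Of 466 values of the 6 genes under alternatives other than leaving out 1 library, 431 kept their sign and 35 reversed. Bdnf kept its sign in the 4 pairwise comparisons and the interaction under each alternative, with adjusted p of 0.102 to 1 for the interaction. Its interaction was 0.97 to 1.60 on the log2 scale, and 0.92 to 1.34 when 1 library was left out. The causes of the changes below were not tested.

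Counts of all genes past the threshold, 0 in each comparison with edgeR, were 37, 14, 186 and 17 with DESeq2 for injury on fish oil, injury on the purified diet, diet in injured and diet in sham libraries, and 3, 99 and 21 for the injury average, diet average and interaction. limma-voom gave 1 for injury on fish oil and 2 for the injury average, and with a correlation of libraries sharing the first library number (-0.256) 1, 2 and, for the diet average, 2. A threshold of 0.10 gave 1 for the injury average, and no filter gave 1 for it and 2 for the diet average. Leaving out 1 library gave 0 to 7 for injury on fish oil (7 without fish oil injured replicate 2), 0 to 83 for diet in injured libraries (83 without purified injured replicate 4, 14 without fish oil injured replicate 2 and 1 without purified injured replicate 3) and 0 to 6 for the diet average (6 without purified injured replicate 4). Without the 2 libraries high in striatal or olfactory bulb transcripts diet in injured libraries gave 1.

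Values that reversed are log2 differences. For Ntf3, injury on fish oil was -0.11 with limma-voom, -0.12 with the correlation and -0.53 with other-tissue covariates, and diet in injured libraries was 0.18, 0.11, 0.13 with the cortical score and 0.20 with the meningeal score. With the meningeal score Ntf3 was -0.22 for injury on the purified diet, -0.16 for diet in sham libraries and 0.37 for the interaction. For Sort1, other-tissue covariates gave -0.21 and 0.23 for injury on fish oil and on the purified diet, -0.39 and 0.051 for diet in injured and in sham libraries, and -0.44 for the interaction. Without the 2 libraries high in striatal or olfactory bulb transcripts Sort1 was 0.088 for injury on the purified diet, 0.057 for diet in sham libraries and -0.036 for the interaction, and with the cortical score 0.10, 0.090 and -0.038. Other-tissue covariates gave -0.027 for Ntrk3 diet in injured libraries and -0.094 for the Ntrk2 interaction, and the meningeal score -0.025 for Ntrk2 diet in sham libraries. The Bdnf injury average was -0.014 with limma-voom, -0.044 with the correlation, -0.016 without those libraries and -0.00711 with the meningeal score, and its diet average 0.12 with other-tissue covariates. Without the 2 libraries high in choroid plexus markers the Bdnf diet average was 0.16, Ntf3 injury on fish oil -0.23, and Sort1 -0.11 for injury on fish oil, -0.13 for diet in injured libraries and -0.076 for the interaction. Some Sort1 values kept their sign but were smaller when 1 library was left out. Sort1 injury on fish oil was 0.046 without fish oil sham replicate 2. Without purified injured replicate 3, Sort1 was 0.021 for diet in injured libraries and 0.070 for the interaction.

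Leaving out 1 library gave Ntf3 -0.78 to 0.52 for injury on fish oil, -0.47 to 1.35 for injury on the purified diet, -0.86 to 1.35 for diet in injured libraries and -1.69 to 0.51 for the interaction. It gave -0.35 to 0.017 for Ntrk3 and -0.13 to 0.088 for Sort1 with injury on the purified diet, and -0.16 to 0.053 for Sort1 with diet in sham libraries. The Bdnf injury average was -0.13 to 0.083 and its diet average -0.19 to 0.018.

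Replicate numbers were shared by the 4 groups, but did not pair the libraries. Of 18 pairs of same-numbered libraries 3 had a correlation of deviations from group means over 0.1 (-0.37 to 0.28), and 3 of 12 libraries correlated best with their own number. With the replicate block 0 genes passed in each comparison, the Bdnf interaction was 1.19 (unadjusted p = 0.00424), and Ntf3 diet in injured libraries reversed to 0.37. The first number of a library's name occurs in 1 group only, so it and the group cannot be told apart. In each group replicates 3 and 4 share that number, and replicate 2 has another. The labels do not say what the number means, so the libraries of a group may not be independent. Ntf3 and Ngfr, with 27 to 204 and 39 to 390 counts a library, are the values that depth limits most.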
